A study of Homo sapiens with 15 samples.

Results

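Crypt stem cell markers are genes used to recognise the stem and progenitor cells at the base of the intestinal crypt. The 10 markers followed here were LGR5, ASCL2, PROM1, CD44, EPHB2, EPHB3, LRIG1, MSI1, SMOC2 and OLFM4. They were taken by name, 10 of the 60671 genes of the count table. The rule sets no threshold on a measured value, but the list was drawn up with earlier results of these data known. Their RNA was measured by poly(A)-selected RNA sequencing in HT115 cells, an established line from a human colorectal carcinoma, in 5 groups of 3 libraries. The M228 and M379 groups carried V5-tagged SOX9 mutants whose changes the sources used here do not give. The M303 group carried a V5-tagged, truncated SOX9. The SOX9_WT group, named CSOX9 in the labels, carried V5-tagged wild-type SOX9, and the GFP group was the control. Every group, the control included, received doxycycline at 0.5 µg/ml for 24 h to switch on its transgene. The parental SOX9 gene was not stated to be removed in any group, so reads from it and from the transgene were counted together. The labels name 5 groups in triplicate, while the text of the series gives 6 experiments in duplicate. The groups follow the labels, and none of them states that replicates were grown as separate cultures. The p-values therefore rest on a library-to-library spread that may be technical.

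Intestinal stem cells sit among Paneth cells at the crypt base and are kept by WNT signals. WNT ligands act through beta-catenin and TCF factors, and R-spondins strengthen the signal through LGR receptors by holding back the ubiquitin ligases RNF43 and ZNRF3. Cells that leave the crypt base lose this signal and mature into enterocytes, goblet cells and other types. SOX9, an HMG-box transcription factor, is itself made in the lower crypt and in Paneth cells. Colorectal cancers often keep WNT signalling on, and several of these markers are read in tumours for that reason.

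SOX9 reads separated the 3 mutant groups from the other groups. SOX9 held 1900 to 2383 CPM (read counts relative to library size, scaled by the TMM method) in the M228 libraries, 2949 to 3039 in M303, 2034 to 2329 in M379, 186 to 243 in SOX9_WT and 97.6 to 158 in GFP. The SOX9_WT group lay above GFP in every library, and the log2 fold change of 0.84 ± 0.18 (SE) was not called (edgeR adjusted p = 0.110). Leaving out GFP replicate 3 made it 1.10, which was called, and DESeq2 called it with all libraries (0.83, adjusted p = 0.00263). A comparison of a mutant with SOX9_WT is therefore also one between unequal levels of SOX9 reads. The mutation and that level cannot be told apart. Whether the reads of each transgene were counted equally well was not tested.

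Library depth ran from 3054755 reads in GFP replicate 1 to 31704249 in M303 replicate 1. GFP replicate 2 stood apart in the sum of a list of crypt genes. Its summed level over 18 WNT target and crypt base genes was 1098 CPM, against 1839 to 2747 CPM in the other 14 libraries. SLC12A2 alone had a median of 1238.5 CPM (481 to 1873) over the libraries and weighs heavily in that sum. Among the markers, GFP replicate 2 was the lowest library for LGR5 (24.4 CPM) and LRIG1 (23.6 CPM), and the highest for ASCL2 (61.4 CPM). The 8 genes of intestinal epithelium, among them EPCAM and CDX2, had reads in every library. Their sum ran from 11649 to 19626 CPM over the mutant and SOX9_WT libraries, and was 9769, 24639 and 16528 CPM in GFP replicates 1, 2 and 3, with the lowest and the highest library both in GFP. KRT8 (median 8780 CPM, 4870 to 12648) and KRT18 (4734, 2447 to 8546) weigh most in that sum. EPCAM ran from 848 to 1117 CPM and CDX2 from 227 to 441 CPM over the libraries. The part of these differences in the results on the markers was not tested. The 9 genes of stroma, endothelium and immune cells summed to 2.43 to 5.83 CPM, with CD3E at 0 in all libraries.

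The markers fell into 3 ranges of abundance in this line. Levels of different genes are compared here as FPKM, the CPM divided by the kilobases of exon that the authors' table gives for each gene, over all 15 libraries. CD44 was the most abundant at 75.7 ± 18.4 FPKM (SD), above 97.1% of the genes tested. ASCL2 followed at 22.4 ± 4.85 FPKM and EPHB2 at 13.8 ± 1.26 FPKM. LGR5 at 9.04 ± 2.49, LRIG1 at 7.93 ± 1.99 and PROM1 at 7.88 ± 3.10 FPKM could not be ordered beyond their spread. EPHB3 at 0.412 and MSI1 at 0.199 FPKM lay above only 13.2% and 6.22% of the genes tested. SMOC2 stood at 0.0273 FPKM and OLFM4 was listed at 0.

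**Figure D1:**
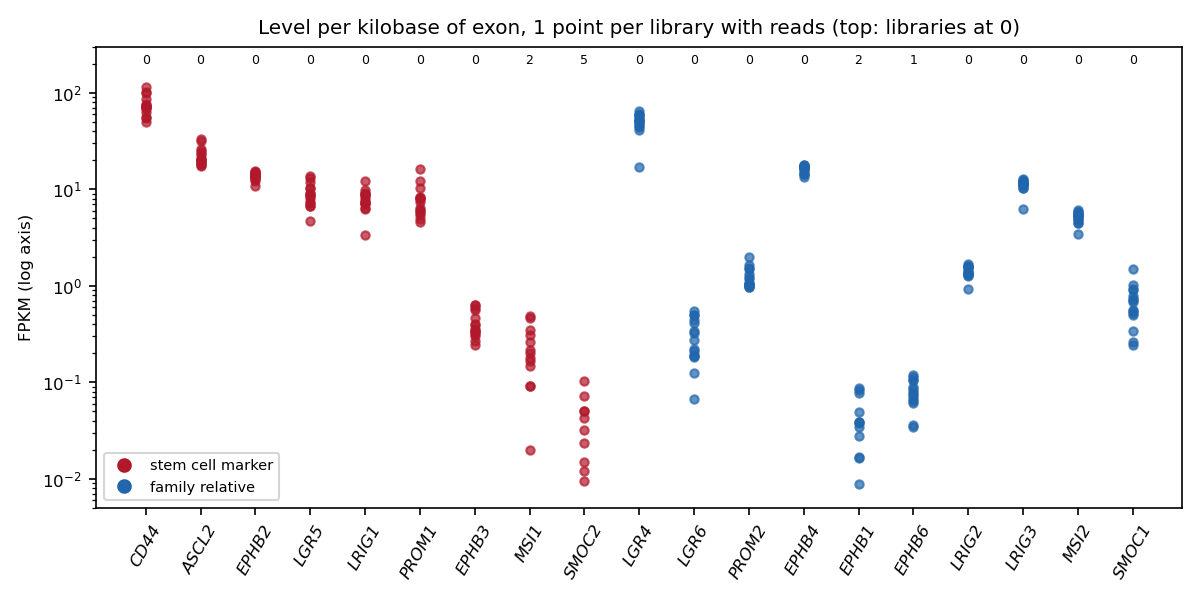
Level per kilobase of exon of 9 stem cell markers (red) and 10 of their family relatives (blue), in FPKM on a log axis, with 1 point for each library that had reads and the number of libraries at 0 along the top. CD44 and LGR4 lie highest in their colour, MSI1 is missing from 2 libraries and SMOC2 from 5, and OLFM4 is left out because no library had a read of it.

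The RNA levels of several family relatives are given beside those of the markers. Among receptors for R-spondins, LGR4 stood at 50.3 FPKM and LGR6 at 0.301, beside 9.04 for LGR5. The ligands RSPO1 and RSPO3 had no read in any library, and RSPO2 and RSPO4 averaged 0.000589 and 0.00248 FPKM. RNF43 and ZNRF3, the ligases that R-spondins hold back, stood at 13.6 and 12.3 FPKM. Of the EPHB receptors, EPHB4 at 16.4 and EPHB2 at 13.8 FPKM were far above EPHB3, EPHB1 and EPHB6, and the ligand EFNB1 stood at 18.6. MSI2 at 5.18 FPKM exceeded MSI1, and LRIG3 at 11.2 FPKM exceeded LRIG1 in the mean over the libraries.

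Each mutant was set against SOX9_WT, a comparison in which the change in SOX9 and the level of its reads cannot be told apart. LGR5, PROM1 and CD44 were lower in every library of each mutant than in any SOX9_WT library. In bulk RNA, fewer cells making a gene and less of its RNA per cell cannot be told apart. In M228 this also held for ASCL2, EPHB2, LRIG1 and MSI1, which makes 7 of the 8 markers that passed the filter on low counts, while 8.61% of all 16160 genes tested lay below SOX9_WT without overlap. MSI1 passed that filter through groups other than M228 and GFP, so its place among the 7 supports nothing. The same holds for its place in the other counts and the median for M228. In M303 it held for 3 of 8, beside 9% of all genes, and in M379 for 3 of 8, beside 9.48%. The share of all genes below SOX9_WT in all 3 mutants at once was not computed. No marker lay above SOX9_WT without overlap in M228, beside 7.12% of all genes, in M303, beside 9.51%, or in M379, beside 9.75%. In the fit of all 15 libraries, with the filter and without the replicate block, no marker passed the test itself. edgeR's quasi-likelihood test, with Benjamini-Hochberg adjustment over all genes and a call at an adjusted p under 0.05, called 0 of 8 in M228, where 0.569% of all genes were called, 0 of 8 in M303, beside 0.384%, and 0 of 8 in M379, beside 0.124%. With the replicate number as a block, PROM1 and CD44 were called in M303, where the numbers paired the libraries, beside 1.6% of all genes. In M228 and M379 the pairing rule given with the methods was not met. There the block called PROM1 in M228, beside 1.97% of all genes, and PROM1 and CD44 in M379, beside 0.656%. Without the filter, PROM1 was called in M228, M303 and M379, beside 0.857%, 0.731% and 0.367% of all genes, and LGR5 in M303. With only the 2 groups compared, LGR5 was called in M303, beside 0.757% of all genes, and CD44 in M379, beside 1.03%. In the first fit 5, 3 and 2 of the 8 had an unadjusted p under 0.05, beside 6.65%, 6.31% and 4.7% of all genes. DESeq2 called 0 in each comparison. The median log2 fold change of the 8 came to -0.49 (M228), -0.23 (M303) and -0.17 (M379), beside 0.01, 0.01 and 0.00 over all genes tested. These comparisons share the SOX9_WT libraries. With plain library totals in place of TMM scaling, a setting chosen after seeing the data, PROM1 overlapped in all 3 comparisons, which left 6, 2 and 2 markers without overlap.

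The comparison of each SOX9 form with GFP asks what induced SOX9 does to the markers. LRIG1 and MSI1 were higher in every library of M303, M379 and SOX9_WT than in any GFP library. Without overlap above GFP there were 1 of 8 markers in M228 (MSI1), beside 5.32% of all genes tested, 2 of 8 in M303, beside 5.5%, 2 of 8 in M379, beside 4.9%, and 2 of 8 in SOX9_WT, beside 6.6%. ASCL2 and EPHB2 lay below GFP without overlap in M228, beside 4.22% of all genes. No marker did so in M303, beside 3.87%, in M379, beside 3.84%, or in SOX9_WT, beside 5.15%. MSI1 passed the filter on low counts through the groups other than GFP, so it had to be higher there, and its place in these counts supports nothing. edgeR called 0 of 8 markers in M228, beside 0.241% of all genes, 0 in M303, beside 0.118%, 0 in M379, beside 0.0371%, and 0 in SOX9_WT, beside 0.0309%. At an unadjusted p under 0.05 there were 3, 2, 2 and 2, MSI1 among them in each, beside 9.38%, 7.8%, 6.77% and 10.7% of all genes. DESeq2 called MSI1 in M303, where it called 0.551% of all genes, and no marker in the other comparisons. The comparisons share the GFP libraries, of which replicate 1 is the shallowest and replicate 2 stood apart in the list sums given above.

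**Figure D2:**
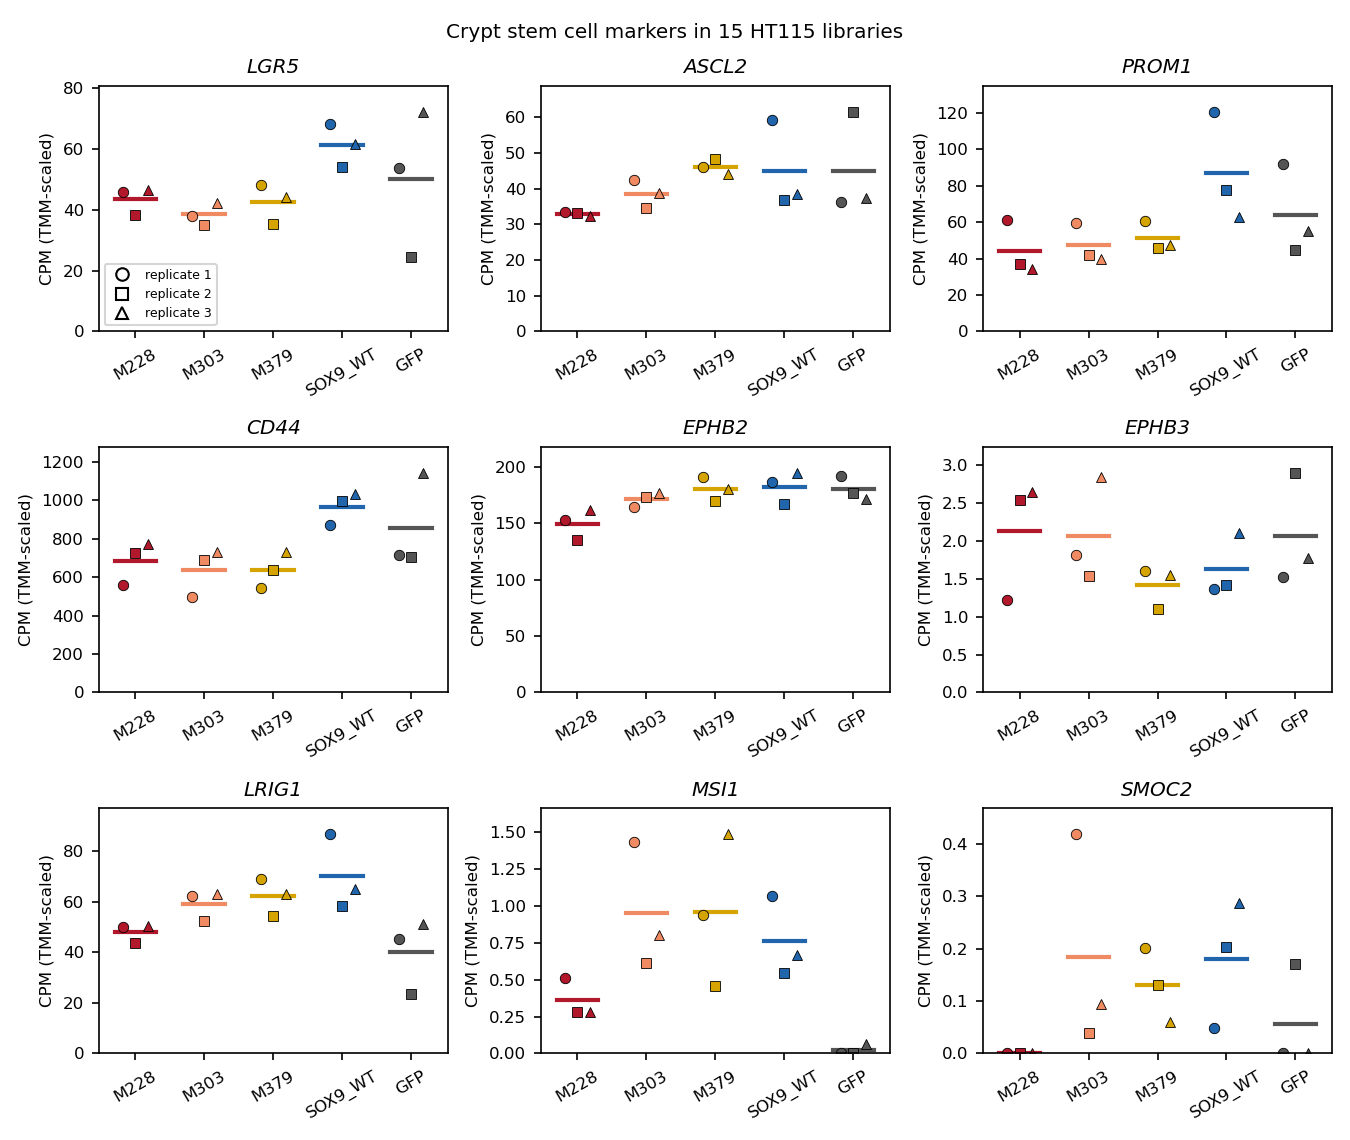
TMM-scaled CPM of 9 markers in each of the 15 libraries, with groups along the x axis, 1 symbol per replicate number and a bar at the group mean. For LGR5, PROM1 and CD44 all 9 mutant libraries lie below the 3 SOX9_WT libraries, and for MSI1 the GFP libraries lie at or near 0.

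LGR5, on chromosome 12 (GRCh38, chr12:71439798-71586310, plus strand), encodes the R-spondin receptor that marks cycling crypt base stem cells. It held 46.0, 38.4 and 46.4 CPM in replicates 1, 2 and 3 of M228, 38.1, 35.1 and 42.3 in M303, 48.3, 35.3 and 44.3 in M379, 68.1, 54.1 and 61.8 in SOX9_WT and 53.8, 24.4 and 72.1 in GFP. The SOX9_WT libraries were above all mutant libraries, and GFP spread across the whole range. Against SOX9_WT the log2 fold change was -0.49 ± 0.27 (SE) in M228, -0.67 ± 0.26 in M303 and -0.52 ± 0.26 in M379 (edgeR adjusted p = 0.898, 0.573 and 0.979). Against GFP the sign depended on 1 library. The fold change of SOX9_WT minus GFP was 0.29 ± 0.27 with all libraries, -0.06 without GFP replicate 2 and 0.71 without GFP replicate 3. In the test for any difference among the 5 groups, LGR5 was not called (edgeR adjusted p = 0.929), but was without GFP replicate 2 (adjusted p = 0.0287). LGR4, the more abundant relative that also binds R-spondins, differed between groups by -0.26 to 0.31 on the log2 scale and was not called in any of the 7 pairwise comparisons.

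ASCL2 (chr11:2268495-2270952, minus strand) encodes a basic helix-loop-helix factor that is a WNT target and directs the stem cell programme of the crypt base. It held 33.6, 33.2 and 32.3 CPM in M228, 42.6, 34.5 and 38.7 in M303, 46.0, 48.4 and 44.1 in M379, 59.1, 36.9 and 38.5 in SOX9_WT and 36.2, 61.4 and 37.4 in GFP. M228 was the lowest group and the tightest, below every SOX9_WT and GFP library. The log2 fold change of M228 was -0.45 ± 0.20 against SOX9_WT and -0.46 ± 0.20 against GFP (edgeR adjusted p = 0.713 and 0.513). Leaving out SOX9_WT replicate 1, its highest library, gave -0.19 for M228 minus SOX9_WT. Without GFP replicate 2, M228 minus GFP was -0.16. In M379 ASCL2 stood close to SOX9_WT (0.04 ± 0.20).

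PROM1 (chr4:15963076-16084378, minus strand) encodes CD133, a pentaspan membrane glycoprotein of membrane protrusions. CD44 (chr11:35138882-35232402, plus strand) encodes the hyaluronan receptor, a WNT target of the crypt base. RefSeq promoter windows of GRCh38.p14 were at hand for 7 of the 10 markers (14 windows of 300 bases, 250 before and 50 after each start site), and not for LGR5, ASCL2 and MSI1. The windows of PROM1 and CD44 are shown because all mutant libraries lay below SOX9_WT for these genes, those of LRIG1 and OLFM4 because they hold a SOX letter pattern. Both strands were searched for AACAAT and ACAAAG, forms bound by SOX proteins, and for TCAAAG, bound by TCF factors, which shares its last 5 letters with ACAAAG. Capitals mark a match, and the first window of PROM1 at chr4:16083974-16084273 (minus strand), that of CD44 at chr11:35138921-35139220 (plus strand), the second of LRIG1 at chr3:66500973-66501272 (minus strand) and that of OLFM4 at chr13:53028563-53028862 (plus strand) are each written 5′ to 3′ along their gene.
PROM1: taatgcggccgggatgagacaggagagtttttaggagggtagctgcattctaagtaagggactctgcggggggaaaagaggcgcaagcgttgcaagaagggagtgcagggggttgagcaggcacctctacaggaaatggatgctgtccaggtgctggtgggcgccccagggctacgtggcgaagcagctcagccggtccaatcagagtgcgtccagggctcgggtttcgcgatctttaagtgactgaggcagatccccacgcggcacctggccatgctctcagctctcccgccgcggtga
CD44: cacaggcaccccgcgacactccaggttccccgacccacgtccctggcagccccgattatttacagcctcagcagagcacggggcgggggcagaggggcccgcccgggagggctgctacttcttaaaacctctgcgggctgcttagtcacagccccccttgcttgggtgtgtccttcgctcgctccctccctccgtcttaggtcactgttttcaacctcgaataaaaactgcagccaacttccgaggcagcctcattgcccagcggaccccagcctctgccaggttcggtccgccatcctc
LRIG1: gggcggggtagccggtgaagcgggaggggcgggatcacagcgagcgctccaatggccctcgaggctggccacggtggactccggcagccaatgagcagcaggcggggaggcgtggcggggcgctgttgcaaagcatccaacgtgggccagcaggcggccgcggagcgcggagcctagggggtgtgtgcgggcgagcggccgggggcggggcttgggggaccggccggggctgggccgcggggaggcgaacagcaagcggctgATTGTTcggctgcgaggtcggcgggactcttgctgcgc
OLFM4: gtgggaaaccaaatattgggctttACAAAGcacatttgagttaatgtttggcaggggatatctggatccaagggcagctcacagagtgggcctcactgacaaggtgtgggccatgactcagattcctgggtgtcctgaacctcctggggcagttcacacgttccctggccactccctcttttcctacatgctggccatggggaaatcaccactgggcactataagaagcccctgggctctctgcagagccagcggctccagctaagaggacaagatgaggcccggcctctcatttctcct

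The windows of PROM1 and CD44 shown above hold none of the 3 patterns. LRIG1 has AACAAT, read on the opposite strand, from the 13th base of the transcript, and again in window 4, 142 bases before that start site. AACAAT stands in 10.1% of the 35116 windows of the RefSeq table, and in at least 1 window of 12.2% of the genes. LRIG1 and PROM1 have 4 windows each, and more windows give more places for a match. OLFM4 has ACAAAG 226 bases before its start site, a pattern found in 16.1% of windows and for 19.0% of genes. TCAAAG stands in 12.9% of windows and for 15.5% of genes. Among the markers it stands in window 4 of PROM1, 179 bases before its start site. A match is a description of the letters, not a site of binding, and windows without a match say nothing of factors bound elsewhere.

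PROM1 showed the largest fold changes between the mutants and SOX9_WT among the markers expressed above a trace. It held 61.3, 37.0 and 34.1 CPM in M228, 59.7, 42.2 and 40.0 in M303, 60.7, 45.7 and 47.7 in M379, 120, 77.6 and 62.8 in SOX9_WT and 91.8, 44.8 and 55.2 in GFP. Replicate 1 was the highest library of all 5 groups, and SOX9_WT was above every mutant at each number. Across numbers the highest mutant library, at 61.3 CPM, came close to the lowest of SOX9_WT, at 62.8 CPM. The mean of M228 was 0.508 of that of SOX9_WT, with 0.477 to 0.544 within numbers. For M303 it was 0.544 (0.495 to 0.638) and for M379 0.591 (0.504 to 0.761). The log2 fold changes of -0.98 ± 0.30, -0.88 ± 0.29 and -0.76 ± 0.29 were not called (edgeR adjusted p = 0.236, 0.389 and 0.818). With the replicate number as a block, M303 minus SOX9_WT was -0.85 ± 0.13 and called (adjusted p = 0.00417, where 1.6% of all genes were). Without SOX9_WT replicate 1, the highest PROM1 library, the fold changes without the block were -0.67, -0.57 and -0.45. By the correlation rule given with the methods, the numbers paired the libraries in M303 minus SOX9_WT (lowest 0.108). The rule was narrowly missed in M228 (0.086) and M379 (0.073) minus SOX9_WT. In those the block also called PROM1 (edgeR adjusted p = 0.00143 and 0.0237, where 1.97% and 0.656% of all genes were). Against GFP the mutants were at -0.51 ± 0.30, -0.41 ± 0.30 and -0.29 ± 0.30 and SOX9_WT at 0.47 ± 0.30, none called. A gene on the same strand, FGFBP2, shares 2.23% of the exon bases of PROM1.

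CD44 held 558, 725 and 774 CPM in M228, 495, 691 and 730 in M303, 544, 639 and 729 in M379, 873, 996 and 1032 in SOX9_WT and 716, 704 and 1140 in GFP. Here replicate 1 was the lowest in 4 of 5 groups, the reverse of PROM1. The mutants were below SOX9_WT at each number, at 0.709, 0.660 and 0.659 of its mean in M228, M303 and M379. The log2 fold changes against SOX9_WT were -0.50 ± 0.20, -0.60 ± 0.20 and -0.60 ± 0.20 (edgeR adjusted p = 0.595, 0.421 and 0.653). With the replicate block CD44 was called in M303 minus SOX9_WT (-0.62 ± 0.12, edgeR adjusted p = 0.0212, where 1.6% of all genes were). The block also called it in M379 minus SOX9_WT, where the pairing rule was not met (-0.61 ± 0.12, 0.0402, where 0.656% were). In GFP, replicate 3 lay above all SOX9_WT libraries and the other GFP libraries below them. The fold change of SOX9_WT minus GFP was 0.18 ± 0.20, and 0.06 without GFP replicate 2 and 0.45 without GFP replicate 3. HAS2 and HAS3, which make the ligand hyaluronan, and ESRP1 and ESRP2, which set the splicing of CD44 in epithelia, were tested and not called in any pairwise comparison. The counts are per gene and hold no measure of CD44 isoforms.

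**Figure D3:**
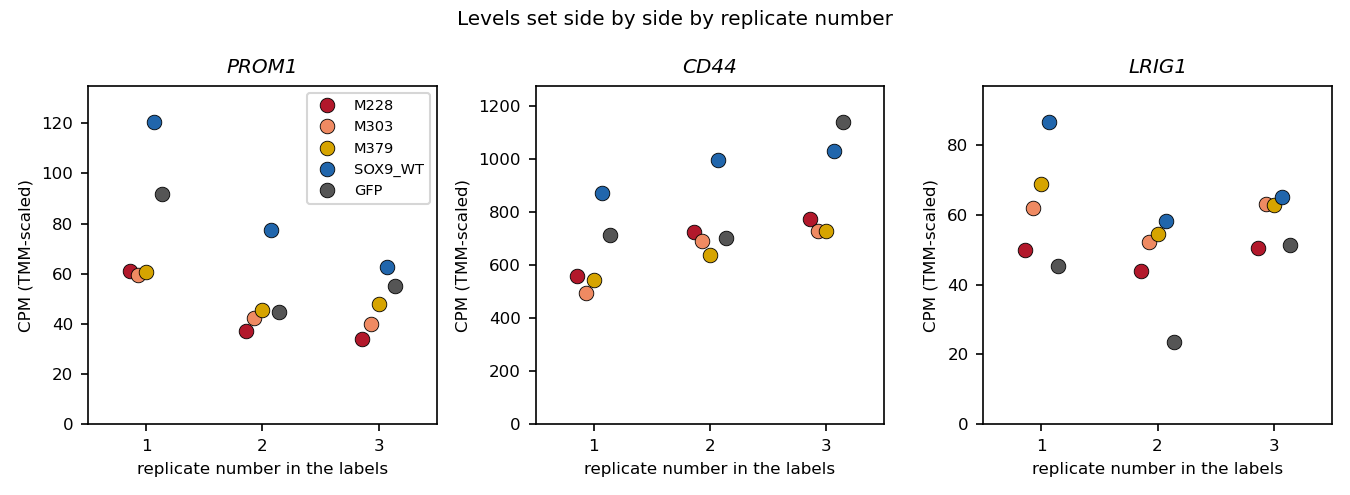
TMM-scaled CPM of PROM1, CD44 and LRIG1 at each replicate number, 1 point per library, with a small sideways shift by group. At each number SOX9_WT lies above the 3 mutants for all 3 genes, PROM1 is highest at number 1 in every group, and GFP replicate 2 is the lowest LRIG1 library.

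EPHB2 (chr1:22710839-22921500, plus strand) and EPHB3 (chr3:184561785-184582408, plus strand) encode receptors for ephrin-B ligands that keep cells in position along the crypt axis, both as WNT targets. EPHB2 was the steadiest marker. It held 152, 135 and 162 CPM in M228, 164, 173 and 176 in M303, 191, 170 and 180 in M379, 186, 167 and 194 in SOX9_WT and 192, 177 and 172 in GFP. M228 lay below all SOX9_WT and all GFP libraries, and the other groups overlapped. Its log2 fold change was -0.28 ± 0.11 against SOX9_WT and -0.27 ± 0.11 against GFP (edgeR adjusted p = 0.513 and 0.483). In M303, M379 and SOX9_WT the changes against GFP were -0.07, 0.00 and 0.02, each ± 0.11. EPHB3 had 5 to 61 reads per library, at 1.10 to 2.90 CPM, and every group overlapped with every other. Its fold changes ran from -0.60 to 0.40 with standard errors of 0.34 to 0.37.

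LRIG1 (chr3:66378797-66501263, minus strand) encodes a membrane protein that lowers ERBB receptor signalling and marks a stem cell population of the mouse intestine. It held 49.98, 43.8 and 50.5 CPM in M228, 62.1, 52.2 and 63.0 in M303, 69.0, 54.4 and 63.0 in M379, 86.6, 58.4 and 65.2 in SOX9_WT and 45.3, 23.6 and 51.3 in GFP. GFP was the lowest group, M228 overlapped with it and the other groups did not. The log2 fold change against GFP was 0.27 ± 0.23 in M228, 0.57 ± 0.23 in M303, 0.64 ± 0.23 in M379 and 0.81 ± 0.23 in SOX9_WT (edgeR adjusted p = 0.729, 0.575, 0.623 and 0.382). Without GFP replicate 2 these were -0.02, 0.27, 0.35 and 0.53. Without the filter on low counts LRIG1 was called in SOX9_WT minus GFP (0.83, edgeR adjusted p = 0.0033, where 0.482% of all genes were). The replicate block also called it there (0.84, 0.0457, where 0.489% were), a comparison in which the pairing rule was not met. LRIG1 was the marker with the most exon bases under an opposite-strand gene, 12.9% with SLC25A26, and reads were counted without regard to strand. EGFR, ERBB2, ERBB3 and MET, receptors that LRIG1 is known to hold back, were not called in any of the 7 comparisons.

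MSI1 (chr12:120341330-120369164, minus strand) encodes Musashi-1, an RNA-binding protein that holds back translation of NUMB and is used as a marker of crypt progenitors. It was close to absent in GFP. MSI1 had 8, 2 and 5 reads in M228, 48, 16 and 17 in M303, 14, 7 and 25 in M379, 22, 8 and 7 in SOX9_WT and 0, 0 and 1 in GFP. Every library with a SOX9 transgene was above every GFP library in CPM, with a highest value of 1.49. The gene was tested only because groups other than GFP passed the filter on low counts, so the values against GFP that follow are a description. Pooled over libraries, the ratio to GFP was 11.7 in M228 (exact 95% interval 1.79 to 490), 31.5 in M303 (5.50 to 1261), 30.6 in M379 (5.23 to 1236) and 25.4 in SOX9_WT (4.28 to 1029). These intervals cover counting error only, and rest on 1 GFP read in libraries whose shallowest would show 3 reads only from 0.912 CPM upward. The test missed the threshold in all 4 comparisons (edgeR adjusted p = 0.346, 0.0737, 0.152 and 0.124). With the replicate block MSI1 was called in M303 minus GFP (adjusted p = 0.0132, where 0.526% of all genes were) and M379 minus GFP (0.0370, where 0.105% were), both comparisons in which the numbers paired the libraries. These calls are subject to the same limit. Within the SOX9 groups, M228 had the lowest levels, 0.282 to 0.513 CPM, against 0.543 to 1.07 in SOX9_WT. MSI2 and NUMB, at higher levels, were not called.

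SMOC2 (chr6:168441151-168673445, plus strand) encodes a secreted matrix protein enriched in LGR5-positive cells, and OLFM4 (chr13:53028813-53052057, plus strand) a secreted glycoprotein that marks human crypt base stem cells. Both failed the filter on low counts and were not tested. SMOC2 had 32 reads in all, 0 in M228, 17 in M303, 6 in M379, 7 in SOX9_WT and 2 in GFP. Of the M303 reads 14 came from replicate 1, the deepest library. OLFM4 had no read among 245160809, and a count of 0 allows up to 0.0122 CPM (3 reads over all libraries, counting error only). Whether OLFM4 differs between groups was not detectable at this depth.

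**Figure D4:**
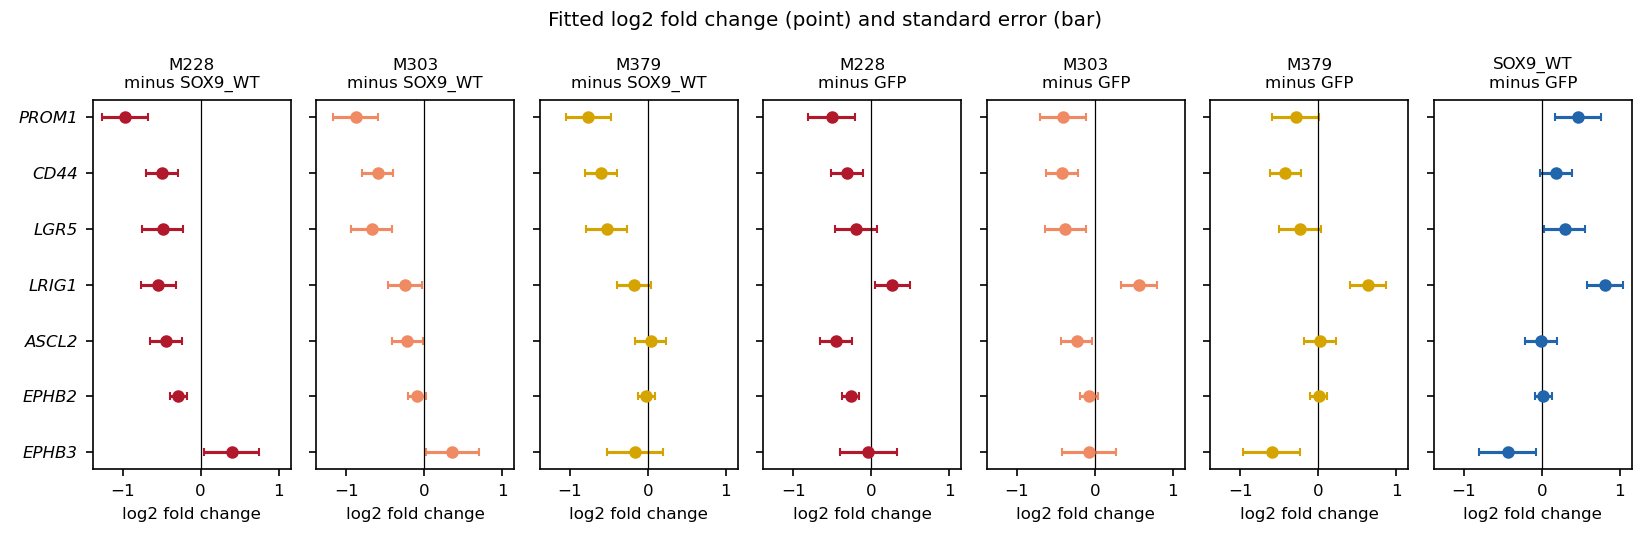
Fitted log2 fold change (points) and standard error (bars) of 7 markers in the 7 pairwise comparisons, with the gene down the page. PROM1, CD44, LGR5 and LRIG1 lie left of 0 in all 3 mutants against SOX9_WT, and LRIG1 lies right of 0 against GFP in all 4. MSI1 is left out because its fitted value depends on the constant added to counts of 0.

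Among the mutants ASCL2, EPHB2 and LRIG1 lay lower in all M228 libraries than in any M303 or M379 library. The share of all genes that did so was not computed. MSI1 averaged 0.359 CPM in M228, 0.952 in M303 and 0.960 in M379. The test for any difference among the 3 mutants called 0 of 8 markers, beside 0.0495% of all genes, and only MSI1 passed an unadjusted threshold of 0.05. DESeq2 also called 0. ASCL2 and EPHB2 were lowest in M228, with an unadjusted p of 0.0870 and 0.0775 from the same edgeR test. The test for any difference among the 5 groups called 0 of 8, beside 0.681% of all genes, with 4 at an unadjusted p under 0.05 (PROM1, LRIG1, MSI1 and CD44), beside 6.85% of all genes. DESeq2 called MSI1 there, and 2.22% of all genes. Neither test has a direction. MSI1 passed the filter on low counts through groups other than M228 and GFP, so its place in both tests supports nothing.

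The genes around the markers were described by lists chosen with earlier results of these data known. Of 29 partners and relatives, 21 were tested and none was called in any of the 7 pairwise comparisons. Of 18 other WNT targets and crypt base genes, 17 were tested. APCDD1, a secreted WNT inhibitor, rose in SOX9_WT, with 10.6 CPM as the median library and 7.6 to 13.9 as the range, against 0.681 to 3.35 CPM in GFP (log2 fold change 2.74 ± 0.38, edgeR adjusted p = 0.0227). It fell in each mutant against SOX9_WT, to 1.98 to 3.01 CPM in M228, 2.46 to 3.16 in M303 and 2.27 to 3.76 in M379 (-2.10 ± 0.34, -1.91 ± 0.32 and -1.83 ± 0.33, adjusted p = 0.00981, 0.0193 and 0.0436). These calls were sensitive to single libraries. The SOX9_WT minus GFP call was lost without SOX9_WT replicate 1 (2.49) or GFP replicate 2 (2.29). The M228 call was lost without SOX9_WT replicate 1 (-1.86), M228 replicate 2 (-2.11) or M228 replicate 3 (-1.93). The M303 call was lost without SOX9_WT replicates 1 (-1.66) or 3 (-1.92) or M303 replicates 2 (-1.81) or 3 (-1.93), and the M379 call without any 1 of the 6 libraries (-2.03 to -1.58). The direction held in each of these fits.

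TCF7, a WNT-pathway transcription factor, was lower in M228 and M303 than in SOX9_WT. It held 39.6 to 43.5 CPM in M228, 40.0 to 42.2 in M303, 46.6 to 50.8 in M379 and 64.0 to 68.6 in SOX9_WT, a gap wider than the spread of any of these groups. The fold changes were -0.64 ± 0.11 and -0.68 ± 0.11 (edgeR adjusted p = 0.0124 and 0.0135), and -0.45 ± 0.11 in M379, which edgeR did not call (0.216) and DESeq2 did (-0.45, adjusted p = 0.00258). The M228 call was lost without SOX9_WT replicates 1 (-0.61) or 2 (-0.66) or M228 replicates 1 (-0.60) or 2 (-0.66). The M303 call was lost without any 1 of the 6 libraries (-0.70 to -0.65). In the group means GFP stood between SOX9_WT and the mutants. With 1 library left out, the changes against GFP were -0.30 to -0.17 in M228, -0.35 to -0.20 in M303 and -0.11 to 0.03 in M379. In SOX9_WT minus GFP they were 0.34 to 0.48. None of these was called by edgeR, while DESeq2 called SOX9_WT minus GFP with all libraries (0.39, adjusted p = 0.0389). The list as a whole was mixed. In M228 minus SOX9_WT 10 of its 17 members lay below 0 and 7 above, with a median of -0.11, beside 0.01 over all genes. AXIN2, the common feedback target of WNT signalling, stood at 34.3 FPKM and was not called.

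Genes of differentiated intestinal cells were followed beside the markers. The 13 genes of that list summed to 1486 to 2059 CPM in M228, 1521 to 2351 in M303, 1820 to 2127 in M379, 3759 to 4615 in SOX9_WT and 2196 to 3304 in GFP. The sum was thus highest in the same group as PROM1, CD44 and LGR5, and its part in the result on the markers was not tested. The single genes were mixed. Of those tested, LYZ, KRT20, SLC26A3 and FCGBP had their highest group mean in SOX9_WT. FABP1, ALPI and SI had it in M303, MUC2 and TFF3 in GFP, and SPINK4 in M228. DEFA5 had no read, and 1 to 3 of the 13 were at 0 in a library. Most of the sum came from LYZ, the lysozyme gene of Paneth cells, at 828 ± 189 CPM in M228, 1102 ± 397 in M303, 1185 ± 224 in M379, 2992 ± 500 in SOX9_WT and 1816 ± 541 in GFP (SD, n = 3), and from KRT20, a keratin of mature surface cells. LYZ fell in M228 and M303 against SOX9_WT (-1.85 ± 0.27 and -1.44 ± 0.27, edgeR adjusted p = 0.00470 and 0.0296), and 34.7% of its exon bases lie under an opposite-strand gene. The M303 call was lost without any of the SOX9_WT libraries (-1.54 to -1.30) or without M303 replicates 2 (-1.34) or 3 (-1.26). In M379 minus SOX9_WT the fold change was -1.34 ± 0.27, not called by edgeR (adjusted p = 0.0936) and called by DESeq2 (-1.34, adjusted p = 0.000612). With the replicate block LYZ was also called lower in M228 minus GFP (-1.12, adjusted p = 0.000716) and M303 minus GFP (-0.74, 0.0176).

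KRT20 held 852 ± 217 CPM in M228, 658 ± 67.9 in M303, 641 ± 31.4 in M379, 1098 ± 207 in SOX9_WT and 640.3 ± 55.6 in GFP (SD, n = 3). Its fold change was 0.78 ± 0.17 in SOX9_WT minus GFP and -0.74 ± 0.17 in M303 minus SOX9_WT, neither called (edgeR adjusted p = 0.139 and 0.0905). DESeq2 called both (0.77, adjusted p = 0.00905, and -0.75, 0.00623) and M379 minus SOX9_WT (-0.78, 0.00758). With the replicate block it was called in M303 minus SOX9_WT (-0.73, adjusted p = 0.0123). SI, the sucrase-isomaltase of the brush border, rose in M303 against GFP, to 3.23 to 4.87 CPM in M303, against 0.428 to 1.22 CPM in GFP (2.72 ± 0.46, edgeR adjusted p = 0.0328). Of the GFP libraries, 2 had 7 reads of SI and the shallowest had 4. That call was lost without any M303 library (2.54 to 2.84), GFP replicate 2 (2.73) or GFP replicate 3 (2.38). With the replicate block SI was also called higher in M228 minus GFP (2.05, adjusted p = 0.00705) and in M303 minus SOX9_WT (1.67, 0.00169).

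The genes whose pattern over the 15 libraries was most like that of LGR5 or PROM1 were taken by the smallest root mean square distance of centred log2 CPM among 12544 genes. For LGR5 they were PER2, PIK3R1 and SAMD12, at distances of 0.15, 0.15 and 0.16, where LGR5 itself varied with an SD of 0.39 and the median gene lay at 0.44. PIK3R1 averaged 70.1 CPM in M228, 76.0 in M303, 80.5 in M379, 125 in SOX9_WT and 97.3 in GFP. For PROM1 they were IGFBP3, GCNT1 and ENC1, at 0.18, 0.20 and 0.20, where PROM1 varied with an SD of 0.48 and the median gene lay at 0.53. IGFBP3 averaged 45.4 CPM in M228, 50.4 in M303, 44.9 in M379, 91.3 in SOX9_WT and 62.1 in GFP, and ENC1 231, 224, 226, 499 and 307 CPM in the same order. The libraries share depth and replicate number, and a short distance describes these libraries alone.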

How the data were processed

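The authors deposited a table of read counts per gene for all 15 libraries, which was the unit used here. The alignment was to hg38 by STAR 2.7.0a and the counting by featureCounts 2.0.1 on Ensembl 101, per the submitters' processing notes and the file headers. The command in the file header sets neither a strand nor a paired-end option, so both strands were counted together and each mate counted as a read. Intervals and floors cover counting error only and are too narrow for that reason. A second, normalized table was not used, and it holds 3 columns that match no label.

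Counts were filtered with filterByExpr, scaled by TMM and fitted in 1 edgeR 4.0.16 quasi-likelihood model of the 15 libraries (R 4.3.3, 10 residual degrees of freedom), with 7 pairwise contrasts, a test among the 5 groups and a test among the 3 mutants. P-values were adjusted by Benjamini-Hochberg over all 16160 genes tested, and a gene was called at an adjusted p under 0.05. CPM are TMM-scaled, and FPKM were computed from them and the exon lengths of the table. Standard errors are the fold change divided by the square root of F. The procedure was tested on simulated data. DESeq2 1.42.0 was used for an alternative.

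Named genes were all 10 markers, SOX9, LGR4, KRT20 and APCDD1, every called gene of the lists of partners, WNT targets and differentiated cells, and the 3 nearest genes by pattern for LGR5 and PROM1. The markers and lists were chosen with earlier results of these data known. Other genes, named as background or for their level, were chosen after their values were seen.

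Replicate numbers were taken to pair the libraries of a comparison where the correlation of same-numbered deviations from the group means was over 0.1 in every pair. This held for M228, M303 and M379 minus GFP (lowest 0.181, 0.236 and 0.347) and M303 minus SOX9_WT (0.108), and not for the other 3. The labels do not say what a number marks. Alternatives were another scaling, DESeq2, no filter, the replicate block, replicates 2 and 3 only, only the groups compared, and leaving out each library. Total reads per library ran from 3054755 to 31704249.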

Additional observations from a re-analysis of the deposited data

How the results depend on the processing

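The comparisons are given below in the order SOX9_WT minus GFP, M228, M303 and M379 minus GFP, M228, M303 and M379 minus SOX9_WT, any difference among the 5 groups and any difference among the 3 mutants. The number of all genes called was 67, 163, 89, 50, 227, 170, 71, 359 and 24 with DESeq2, 180, 282, 212, 74, 320, 273, 137, 596 and 70 without the filter on low counts, 79, 181, 85, 17, 319, 259, 106, 332 and 17 with the replicate block, and 1, 9, 4, 3, 21, 7, 1, 16 and 1 with replicates 2 and 3 only. With only the 2 groups compared it was 0, 3, 2, 1, 278, 121 and 156 in the 7 pairwise comparisons. With DESeq2 size factors in edgeR, M379 minus GFP had 3. With 1 library left out the ranges were 0 to 40, 15 to 143, 4 to 31, 2 to 12, 27 to 44, 9 to 33, 1 to 8, 22 to 255 and 1 to 6. Of the markers, DESeq2 called 1 (MSI1) in M303 minus GFP and in the 5-group test. Without the filter 2 were called in SOX9_WT minus GFP (LRIG1 and MSI1), 1 each in M303 and M379 minus GFP (MSI1), 1 each in M228 and M379 minus SOX9_WT (PROM1), 2 in M303 minus SOX9_WT (LGR5 and PROM1) and 4 in the 5-group test (PROM1, LRIG1, MSI1 and CD44). The pairing rule was not met in SOX9_WT minus GFP, M228 minus SOX9_WT or M379 minus SOX9_WT (lowest correlation -0.052, 0.086 and 0.073). There the replicate block called 2 (LRIG1, adjusted p = 0.0457, and MSI1, 0.0381), 1 (PROM1, 0.00143) and 2 (PROM1, 0.0237, and CD44, 0.0402). There it also called SOX9 (0.0381), KRT20 (0.0337) and LYZ (0.0326) in SOX9_WT minus GFP, SI in M228 minus SOX9_WT (0.0288), and KRT20 (0.0177) and LYZ (0.000561) in M379 minus SOX9_WT. The block called 3 in the 5-group test and changed no other marker's call beside those given with the results. With only the 2 groups compared, 1 was called in M303 minus SOX9_WT (LGR5) and 1 in M379 minus SOX9_WT (CD44). Leaving out 1 library gave 0 to 1 in the 5-group test and 0 in the other tests.

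Of 332 marker fold changes with no library left out, 306 kept direction and call, 20 gained a call and 6 changed sign, and of 336 with 1 library left out, 33 changed sign. With replicates 2 and 3 only, the log2 fold change of EPHB3 in M228 minus GFP was 0.18, of KRT20 in M303 minus GFP -0.0062, and in M379 minus GFP those of EPHB2, KRT20 and ASCL2 were -0.0064, -0.021 and -0.11. In M379 minus GFP, EPHB2 was at -0.0057 with DESeq2 size factors, -0.0022 with DESeq2 and -0.016 with only the 2 groups, and KRT20 at -0.0070, -0.0071 and -0.017, and -0.0040 with the replicate block. With 1 library left out, SOX9_WT minus GFP ran from -0.26 to 0.29 for ASCL2, -0.025 to 0.083 for EPHB2, -0.059 to 0.71 for LGR5 and -0.084 to 0.64 for LGR4. M228 minus GFP ran from -0.30 to 0.30 for EPHB3, -0.26 to 0.46 for LGR4, -0.016 to 0.53 for LRIG1 and -0.55 to 0.22 for LGR5. M303 minus GFP ran from -0.35 to 0.26 for EPHB3, -0.043 to 0.11 for KRT20, -0.36 to 0.062 for ASCL2, -0.32 to 0.40 for LGR4 and -0.74 to 0.032 for LGR5. M379 minus GFP ran from -0.049 to 0.047 for EPHB2, -0.35 to 0.38 for LGR4, -0.10 to 0.32 for ASCL2, -0.051 to 0.076 for KRT20, -0.48 to 0.033 for PROM1, -0.59 to 0.18 for LGR5 and -0.11 to 0.033 for TCF7. M303 minus SOX9_WT ran from -0.34 to 0.033 for ASCL2 and -0.16 to 0.69 for MSI1, and M379 minus SOX9_WT from -0.29 to 0.0084 for LRIG1, -0.085 to 0.29 for ASCL2, -0.076 to 0.031 for EPHB2, -0.29 to 0.031 for EPHB3 and -0.18 to 0.69 for MSI1. The cause of these changes was not tested. The number of markers below SOX9_WT without overlap in M228 was 7 with DESeq2 size factors and 6 with library totals, both chosen after seeing the data. Depth limits MSI1, EPHB3, SMOC2 and OLFM4 most.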
